A study of Mus musculus with 2 samples.

Results

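A set of 397 genes with GC-rich promoters lacked an accessible region at every annotated start site in mouse regulatory T cells. The set was drawn from 21755 protein-coding genes on chromosomes 1 to 19 and X of the mm10 genome. Promoters were the 1 kb to either side of each start site of a gene, and the genes were ranked by the GC content of these windows, averaged over start sites. The top 20%, called the GC-rich class here, held 4359 genes with a GC content from 55.2% to 72.5%. Of these, 397 had no promoter region in either of 2 replicate lists, 93 had one in 1 replicate alone, and 3869 had one in both. The first are called closed and the last open, as names for the presence or absence of a listed region and for nothing else. Closed genes made up 9.11% of the GC-rich class, against 33.2% of all protein-coding genes. The members were thus chosen by GC content and by the absence of regions, so these values are a description and carry no test.

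The libraries were ATAC-seq libraries, in which a transposase inserts adapters into accessible DNA, from primary regulatory T cells of the mouse strain C57BL/6NJ. Whether they were plain ATAC-seq or inserts made for another assay was not established. The names of the deposited regions hold the words ASTARR and insert. There was 1 group with replicates 1 and 2, and no treated, control or other cell group. Both replicates carry the same donor label, so it was not established that they came from separate animals, while age and sex were not given, and the names of the deposited regions include 72 h. Replicate 1 listed 68903 regions and replicate 2 listed 78262, with medians of 633 and 636 bp in width, and the sequencing depth is unknown because the lists hold no counts. The cell label was checked against marker genes of any GC content: all 31 pan T cell genes had a promoter region in both replicates, as did 25 of 28 genes of a regulatory T cell list (89.3%), beside 64.9% of all protein-coding genes. In 9 lists for other cell types the percentage went from 13.3% to 66.7%, the last for neurons, so many of their markers had a promoter region too. In the regulatory T cell list Itgae and Klrg1, named here after their state was seen, were closed.

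Most GC-rich mammalian promoters lie in CpG islands, stretches in which the CpG dinucleotide has been kept while it was lost from most of the genome through deamination of methylated cytosine. Promoters of this kind are commonly accessible in every tissue and serve ubiquitously expressed genes. A further class of CpG islands belongs to developmental regulators, which Polycomb complexes hold silent in tissues that do not use them, and GC-rich sequence can also be poor in CpG, as in many tissue-restricted genes.

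Promoter sequences of 4 genes show the kinds of GC-rich sequence found in the GC-rich class, from 250 bases before the RefSeq start to 50 bases after it, on GRCm38.p6, 5′ to 3′ on the strand of the gene, with every CpG dinucleotide in capitals. They were chosen among genes with 1 annotated start site, no repeated sequence and a RefSeq start within 50 bases of the annotated one. Hs3st4, a heparan sulfate sulfotransferase gene, was the closed gene with the highest GC content among these (chr7:123982578-123982877, plus strand). Fgf21, which encodes a metabolic hormone of the liver, was the closed gene of lowest CpG ratio by the same criteria (chr7:45615441-45615740, minus strand). Hoxd12, a homeobox gene of the distal limb, was among these genes the closed developmental transcription factor nearest to the median GC content of closed genes (chr2:74674763-74675062, plus strand). Selenoo, a selenoprotein gene, was the open gene by the same criteria nearest to Hoxd12 in GC content (chr15:89088788-89089087, plus strand).
Hs3st4 (closed): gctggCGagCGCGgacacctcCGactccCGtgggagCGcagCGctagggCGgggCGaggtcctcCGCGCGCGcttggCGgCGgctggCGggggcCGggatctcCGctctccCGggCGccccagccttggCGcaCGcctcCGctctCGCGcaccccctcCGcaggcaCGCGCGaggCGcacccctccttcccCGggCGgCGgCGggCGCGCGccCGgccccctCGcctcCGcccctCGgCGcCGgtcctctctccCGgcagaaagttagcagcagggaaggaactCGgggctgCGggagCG
Fgf21 (closed): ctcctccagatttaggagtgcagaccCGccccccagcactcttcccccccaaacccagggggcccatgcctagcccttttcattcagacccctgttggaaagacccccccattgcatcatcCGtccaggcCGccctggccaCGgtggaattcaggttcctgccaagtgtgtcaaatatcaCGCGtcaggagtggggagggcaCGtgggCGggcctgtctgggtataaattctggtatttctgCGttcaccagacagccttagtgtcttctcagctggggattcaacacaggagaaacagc
Hoxd12 (closed): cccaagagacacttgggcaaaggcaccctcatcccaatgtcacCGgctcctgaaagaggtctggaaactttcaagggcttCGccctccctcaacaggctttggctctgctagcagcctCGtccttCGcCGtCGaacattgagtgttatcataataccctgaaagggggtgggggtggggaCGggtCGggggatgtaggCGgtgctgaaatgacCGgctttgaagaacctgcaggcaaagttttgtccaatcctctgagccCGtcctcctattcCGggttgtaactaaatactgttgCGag
Selenoo (open): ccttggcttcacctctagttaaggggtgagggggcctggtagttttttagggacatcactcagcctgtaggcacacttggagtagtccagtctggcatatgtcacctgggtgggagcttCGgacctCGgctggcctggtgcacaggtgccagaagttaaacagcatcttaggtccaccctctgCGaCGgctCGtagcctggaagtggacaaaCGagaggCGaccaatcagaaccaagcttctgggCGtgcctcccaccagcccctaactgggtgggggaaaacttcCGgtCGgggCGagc
The Hs3st4 stretch held 47 CpGs and the Fgf21 stretch 9, although both promoters were in the GC-rich class. Hoxd12 and Selenoo held 13 and 11 CpGs in the printed stretches and had the same promoter GC content of 56.8% over the 1 kb windows. Over those windows their ratios of observed to expected CpGs were 0.532 and 0.676. The strongest Selenoo promoter region had a signal of 12.7 in replicate 1 and 12.2 in replicate 2, above 87.5% and 86.4% of the regions of each list.

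The closed share of genes fell with promoter GC content across the genome. When all genes were ranked by GC content and cut into 5 classes of nearly equal size, from the lowest to the highest 80.8%, 36.2%, 23.6%, 16.3% and 9.11% of genes were closed. Counted in each replicate by itself, 468 genes of the GC-rich class (10.7%) had no promoter region in replicate 1 and 419 (9.61%) in replicate 2, a mean of 10.2% ± 0.795 (SD, n = 2). The replicates therefore shared 397 such genes. Within the GC-rich class the share went from 12.2% in its lowest part to 7.57% in its highest, when it was divided in 5 by GC content. At the threshold, the 3 closed genes just inside had a GC content of 55.22%, among them Guca2a, which encodes an intestinal peptide hormone, and the 3 just outside had 55.17% to 55.20%.

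**Figure D1:**
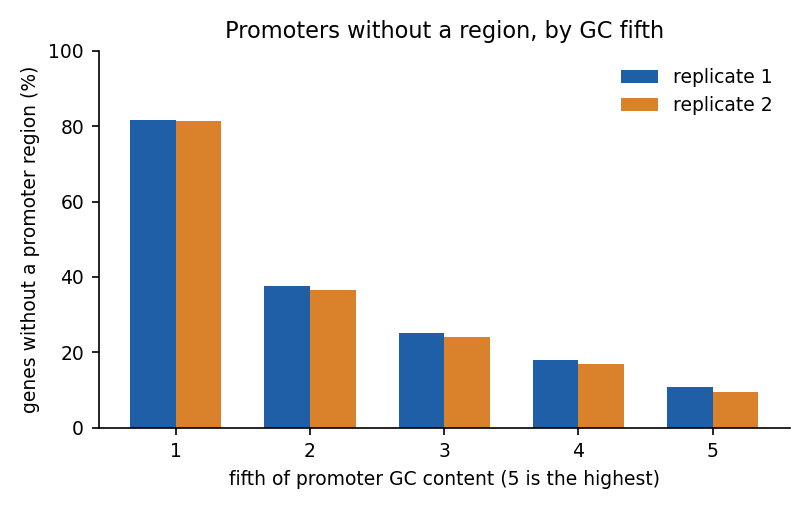
Bars give the percentage of protein-coding genes without a region at any promoter in each of 5 nearly equal classes of promoter GC content, in replicate 1 (blue) and replicate 2 (orange). The share fell from 81.7% and 81.2% in the lowest class to 10.7% and 9.61% in the highest.

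Developmental transcription factors made up 239 genes of the GC-rich class, and 35 of them were closed (14.6%, beside 9.11% of the whole GC-rich class). They specify cell fate in the embryo. Replicate 1 lacked a region at 48 of them and replicate 2 at 39, so 17 had a region in 1 replicate alone. By family, 8 of 36 basic helix-loop-helix genes, 6 of 43 NK and related homeobox genes, 4 of 30 forkhead genes and 2 of 22 Hox genes were closed. Genes are not replicates of a condition and the replicates form 1 group, so no test between gene groups was made here or below.

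Most genes of this group were open, with regions that ranked a little below the middle of the lists. The strongest promoter region of an open developmental factor had a median signal rank at 43.4% of the list in replicate 1 and 47.2% in replicate 2. Open housekeeping genes stood at 82.1% in both. Ranks near the middle were not particular to developmental factors. Open signalling ligands and antagonists stood at 50.2% and 54.6%, and open ion channels and neurotransmitter receptors at 52.2% and 56.5%. Of the 22 Hox genes 18 were open, Hoxd12 and Hoxa5, a regulator of axial and lung development, were closed, and Hoxc11 and Hoxc13, named after their state was seen, had a region in replicate 2 alone.

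The closed factors belonged to many lineages other than T cells. Sox11, a factor of neural progenitors, had a promoter GC content of 67.2% and a CpG ratio, the observed over the expected number of CpGs, of 0.967. Its nearest region lay 828 kb away in replicate 1 and 809 kb in replicate 2, and no region fell in its locus, here the gene and 10 kb beyond each end, without any promoter window. Gli3, a transcription factor of the Hedgehog pathway, had its nearest region 204 kb away in both replicates, and 1 replicated region in its locus. Foxa2, a factor of the endoderm, was 349 kb and 329 kb from a region, and Sall1, a kidney regulator, 251 kb in both. Sox14, a factor of the nervous system, was 288 kb and 246 kb away. These promoters stood in long stretches without a listed region.

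Others stood close to a region that missed the promoter window. For Foxl1, a factor of the gut mesenchyme, the nearest region lay 2.15 kb away in replicate 1 and 2.14 kb in replicate 2. Tlx1, a homeobox gene needed for the spleen, had a region at 2.27 kb and 2.18 kb and 3 replicated regions in its locus. Hoxd12 had one at 1.78 kb in both. Irx4, of the heart ventricle, had one at 2.95 kb and 2.91 kb. For Ptf1a, of the pancreas, the replicates differed, with 14.4 kb in replicate 1 and 2.51 kb in replicate 2. The same was true of Hmx1, of sensory ganglia, with 26.7 kb and 2.75 kb. By signal, the Ptf1a regions ranked at 3.37% and 4.60% of their lists and the Hmx1 regions at 98.7% and 11.9%. The close regions of replicate 2 were thus weak ones. Of the 35 closed factors, 12 (34.3%) had a region within 5 kb in both replicates and 14 (40%) had none within 50 kb in either, beside 29.2% and 29.5% of all closed genes.

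Signalling ligands and their antagonists, which carry developmental signals between cells, numbered 58, and 11 of them (18.97%) were closed. Each replicate lacked a region at 13. Ihh, the Hedgehog ligand of cartilage, had a promoter GC content of 65.6%. It had a region at 2.03 kb in replicate 1 and 1.03 kb in replicate 2, hence close to the edge of the window. By signal these regions ranked at 57.7% and 1.81% of their lists. Dhh, the Hedgehog ligand of the testis and peripheral nerve, had regions at 2.47 kb and 3.27 kb. Wnt3a, a ligand of the embryonic body axis, was at 15.7 kb and 2.83 kb. Among the secreted antagonists, Sfrp1, which binds Wnt proteins, was 154 kb from a region in both replicates, and Grem1, which binds BMPs, 49.0 kb and 48.9 kb. Gdf10 and Gdf15, the latter a stress-induced hormone, belong to the class of BMP, GDF and TGF-beta ligands. They differed from each other, at 157 kb and 157 kb for the first and 1.40 kb and 1.39 kb for the second. Fgf17, of the midbrain, had regions at 3.09 kb and 3.20 kb and 3 replicated regions in its locus.

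Ion channels and neurotransmitter receptors, the machinery of excitable cells, had the highest closed share among the 8 broad groups with a known function, 25 of 116 (21.6%). Replicate 1 lacked a region at 30 and replicate 2 at 26. Potassium channels gave 10 of 45, amine and peptide receptors 7 of 30, and transmitter receptors and sodium, calcium and cation channels 4 each, of 17 and 24. Hcn4, the pacemaker channel of the heart, had a GC content of 71.1% and a nearest region at 17.1 kb and 17.3 kb. Grik3, a kainate receptor subunit, was 330 kb and 161 kb away, from regions that ranked at 93.8% and 9.37% of their lists by signal. Gabra5, a subunit of the GABA-A receptor, was at 80.8 kb and 80.5 kb, and Crhr1, the receptor of corticotropin-releasing hormone, at 24.9 kb and 25.1 kb. By contrast the calcium channel gene Cacna1i had a region at 1.83 kb and 1.78 kb with 4 replicated regions in the locus, and Kcnk9, a leak potassium channel, one at 2.76 kb and 2.79 kb.

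Of the broad group of other membrane proteins 19 of 165 genes were closed (11.5%). Within it, orphan and adhesion G protein-coupled receptors had a larger share, 9 of 25 (36.0%), with the same 9 counted in each replicate. Adgrb1, an adhesion receptor of this class, had 12 annotated start sites, none with a region, and 6 replicated regions elsewhere in its locus. Solute carriers gave 6 of 89, receptors and guidance molecules 6 of 56 (10.7%), and matrix genes 4 of 35 (11.4%), shares near the 9.11% of the GC-rich class. All 4 matrix genes, such as Col13a1, a transmembrane collagen with regions at 1.04 kb and 1.15 kb, had a region within 5 kb in both replicates.

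Housekeeping machinery and the zinc finger protein genes outside the developmental factors, a class made by symbol, were almost never closed. Of 91 genes for ribosomal proteins, respiratory chain, proteasome, splicing and translation, 1 was closed in both replicates (1.10%). That gene was Eef1a2, the elongation factor of muscle and neurons that replaces its ubiquitous paralog there. Its nearest region lay 8.73 kb away in replicate 1 and 2.82 kb in replicate 2. Of 90 nuclear receptor and zinc finger protein genes, 1 was closed, Nr0b2, a repressor of bile acid synthesis in the liver. It was 1 of 17 nuclear receptor genes (5.88%, beside 9.11% of the GC-rich class), and none of the 73 zinc finger protein genes in this class was closed. Developmental zinc finger genes, counted above among the developmental factors, gave 4 closed of 33 (12.1%). With only the 50000 strongest regions of each list by signal, 17.4% of the GC-rich class, 39.3% of developmental factors, 39.7% of ligands, 37.9% of channels and 2.20% of housekeeping genes were closed. The levels therefore depended on how far down the lists were read, and the order of housekeeping machinery below these groups did not change.

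**Figure D2:**
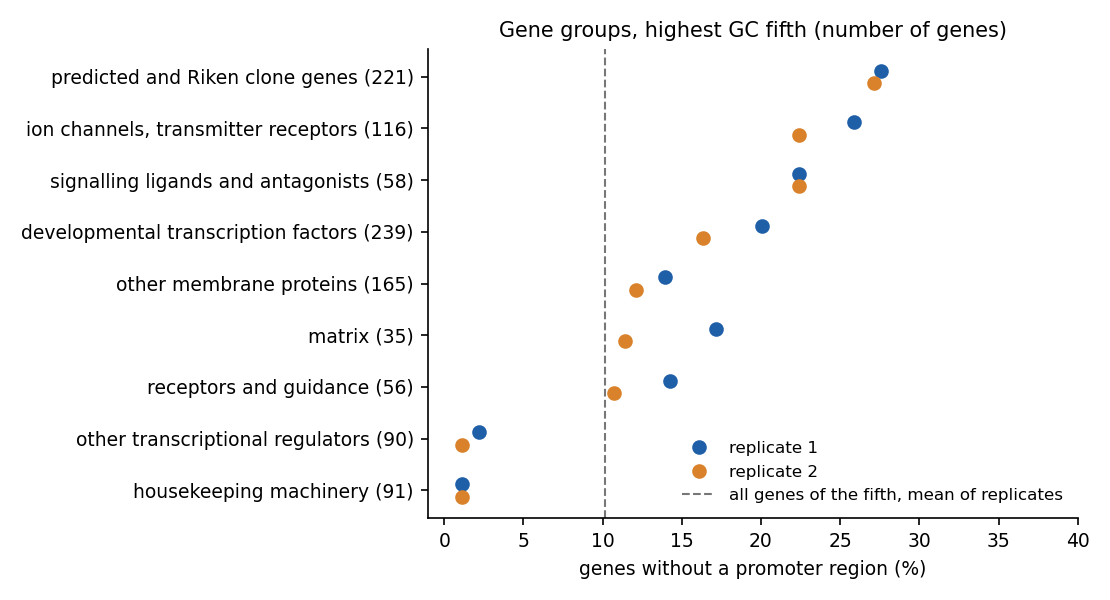
Points give the percentage of genes without a promoter region for each gene group of the GC-rich class, by replicate, with the number of genes in brackets and a dashed line at 10.2%, the mean over the whole GC-rich class. In both replicates 7 of the 9 groups lie to the right of the line, predicted genes farthest and receptors and guidance molecules nearest to it in replicate 2 (10.7%), while housekeeping machinery (1.10%) and other transcriptional regulators lie to the left.

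Of 34 markers of other cell types in the GC-rich class, 6 were closed (17.6%, beside 9.11% of the whole class). Closed markers included Myod1 and Des, the muscle determination factor and the muscle intermediate filament, Cebpe of granulocytes, Nefl, a neurofilament, and Krt8, a simple epithelial keratin. By list, 2 of 4 muscle, 1 of 2 myeloid, 1 of 10 neuronal and 1 of 8 epithelial markers were closed. None of 4 endothelial, 3 fibroblast and 2 erythroid and megakaryocyte markers was closed, so most GC-rich markers of several lists were not. Myod1 had regions at 1.91 kb and 1.72 kb and 2 replicated regions in its locus, while Nefl had none in its locus and its nearest at 15.7 kb in both replicates. Of the lists for the labelled cell, 5 regulatory T cell genes and 5 pan T cell genes fell in the GC-rich class, and all were open.

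The closed promoters were poorer in CpG than the open ones of the same class. CpG ratio was not used by the rule, though it is computed from the same windows as GC content. Its median was 0.467 in closed genes, with a range from 0.0195 to 1.08, and 0.589 in open genes. The closed share was 63.4% below a ratio of 0.2, where 45 of 71 genes were closed, 34.2% between 0.2 and 0.3, 11.6% between 0.3 and 0.4, and 4.73% at 0.8 or more. Most of the decline lay below 0.4. Of the 397 closed genes, 102 had a ratio of 0.6 or more, which was 5.14% of the 1986 genes at that level.

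The gene groups differed on this scale. Closed developmental factors had a median ratio of 0.644, with 21 of 35 at 0.6 or more, and closed channels and receptors one of 0.453, with 8 of 25. At 0.6 or more, the closed shares were 12.4% for developmental factors, 17.2% for ligands and 22.9% for channels, and none of 64 housekeeping genes was closed. The 10 closed genes of highest GC content all belonged to the CpG-rich side, and included Ajap1, a junction protein gene (ratio 0.849), Nrg3, a neuregulin ligand (0.832), and Dio3, the enzyme that inactivates thyroid hormone (0.896). At the other end stood the hair keratin-associated proteins and genes such as Fgf21, with a ratio of 0.161.

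The number of annotated start sites moved with the closed share as well. A gene is closed only if all its promoters lack a region, so each further start site gives it another chance to be open. The share was 18.7% for genes with 1 start site, 11.6% with 2, 7.74% with 3 to 4, 4.15% with 5 to 8 and 1.88% with 9 or more, and the median was 2 sites in closed and 4 in open genes. Among genes with 1 or 2 start sites, 16.1% of developmental factors, 24.4% of ligands, 26.9% of channels and 3.57% of housekeeping genes were closed, beside 15.6% of all GC-rich genes with so few sites. Developmental factors thus stood near the share of the class there. With 3 or more, the shares were 11.3%, 5.88%, 17.2% and 0%, in the same order, beside 5.11% of all, and here ligands stood near it. The part of the start sites in the differences between groups was not tested beyond these strata.

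**Figure D3:**
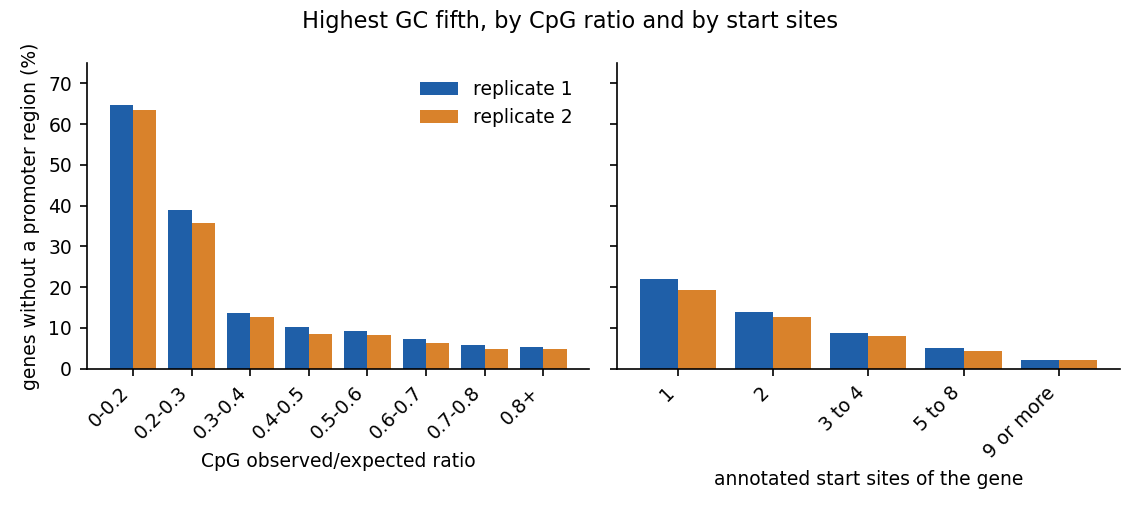
Bars give the percentage of genes of the GC-rich class without a promoter region, by the CpG observed/expected ratio of the promoters (left) and by the number of annotated start sites (right), in replicate 1 (blue) and replicate 2 (orange). The left panel falls from 64.8% and 63.4% below a ratio of 0.2, and the right one from 21.9% and 19.4% at 1 start site.

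Sequence present in several copies made up a part of the set. For each gene the 50-base words of its promoters that occur elsewhere in the genome were counted, since reads from such places may not be assignable to one of them. At 5% or more repeated words, 67 of 284 genes were closed (23.6%), and below it 330 of 4075 (8.10%). Predicted genes and Riken clones held 60 of the closed genes, and 40 of these 60 were on the repeated side. Below 5%, 20 of 170 such genes were closed (11.8%). No closed gene among developmental factors, ligands, channels and housekeeping machinery was on the repeated side. In Slc25a37, the mitochondrial iron importer of red cells, all promoter words (100%) occurred elsewhere, and the gene had 2 replicated regions in its locus. How the authors treated such reads was not stated in what was read here, and the part of repeated sequence in these absences was not tested.

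Among GC-rich genes taken in order along the chromosomes there were 11 runs of 3 or more consecutive closed genes. In 5 runs all genes had 5% or more repeated words, in 2 a single gene did, and in 4 none did, such as the run of 3 that starts with Hmx1. The longest run, 13 genes of the GC-rich class at chr4:88760119-88808380, comprised Ifnz, which encodes interferon zeta, and predicted genes, with 67.8% to 100% repeated words. A run of 11 on chromosome 10 held Krtap10-4 and Krtap10-10, hair keratin-associated protein genes, among predicted genes, with CpG ratios of 0.0727 to 0.157 and 5.38% to 83.4% repeated words. A run of 6 on chromosome 14, starting with Gm2897, had its nearest region at 425 kb to 4266 kb, with 59.5% to 98.1% repeated words. Chromosome X had the highest closed share, 24 of 89 genes (26.97%), and 17 of 76 (22.4%) without genes of repeated words, and chromosome 19 the lowest, 8 of 187 (4.28%).

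Regions outside promoters were fewer in the loci of closed genes. A replicated region, one in replicate 1 that overlaps one in replicate 2 by at least 1 bp, lay in the locus of 175 of 397 closed genes (44.1%) and of 2891 of 3869 open genes (74.7%). Counting any region of replicate 1, the percentages were 45.3% and 77.5%, and counting any region of replicate 2, they were 50.4% and 81.0%. Per 100 kb, closed loci held 0.990 replicated regions and open loci 4.58. The medians of locus length were 28.6 kb and 29.01 kb, but long loci weigh most in such a density. In loci under 25 kb it was 4.07 in closed and 5.08 in open genes, and in those over 100 kb it was 0.245 and 3.76. The difference was thus small in short loci and large in long ones, in both replicates.

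**Figure D4:**
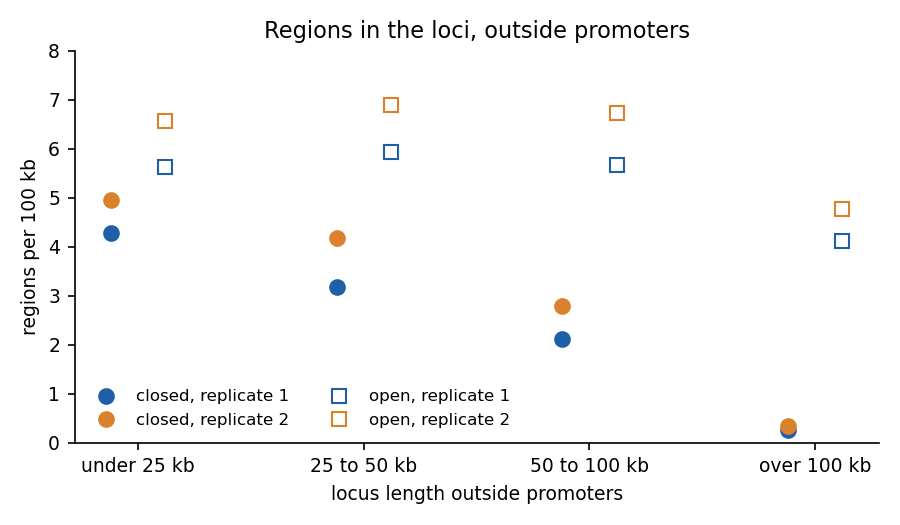
Points give the number of regions per 100 kb in the loci of closed genes (filled circles) and open genes (empty squares) by locus length, in replicate 1 (blue) and replicate 2 (orange), promoter windows left out. Open loci stay between 4.11 and 6.89 regions per 100 kb, and closed loci go from 4.29 and 4.95 under 25 kb to 0.256 and 0.350 over 100 kb.

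Some closed genes had many regions in their loci, counted without regard to locus length. Kcnip1, a potassium channel-interacting protein, held 13 regions in replicate 1 and 17 in replicate 2 outside promoters, 13 of them replicated, over 378 kb of locus. Nos1, the neuronal nitric oxide synthase, held 9 and 11, and Grik5, a kainate receptor subunit, 7 in each. Kdm6b, a demethylase of the Polycomb mark H3K27me3, held 5 and 4, with a region at 1.56 kb and 1.57 kb from an annotated start. In these cases accessible regions lay in or next to a gene that had none at its promoters. The other extreme outside repeated sequence was Tmem47, a membrane protein gene on chromosome X, 2486 kb from the nearest region in both replicates.

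Across the set, the distance from a start site to the nearest region had a median of 15.7 kb in replicate 1 and 12.98 kb in replicate 2. The shortest distances were 1.03 kb and 1.01 kb, just outside the window that the rule used. Replicate 1 placed 47 genes within 2 kb of a region and replicate 2 placed 58, with 44 in common, and within 100 kb the numbers were 297 and 300. The regions nearest to those 44 genes had median signal ranks of 52.1% and 56.8% of their lists, so they were of ordinary strength. The CpG-rich side was more remote: closed genes with a ratio of 0.6 or more had medians of 83.8 kb and 76.0 kb, and the others 11.3 kb and 10.6 kb. CpG-rich closed genes were also longer, with a median gene length of 35.2 kb against 9.61 kb.

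**Figure D5:**
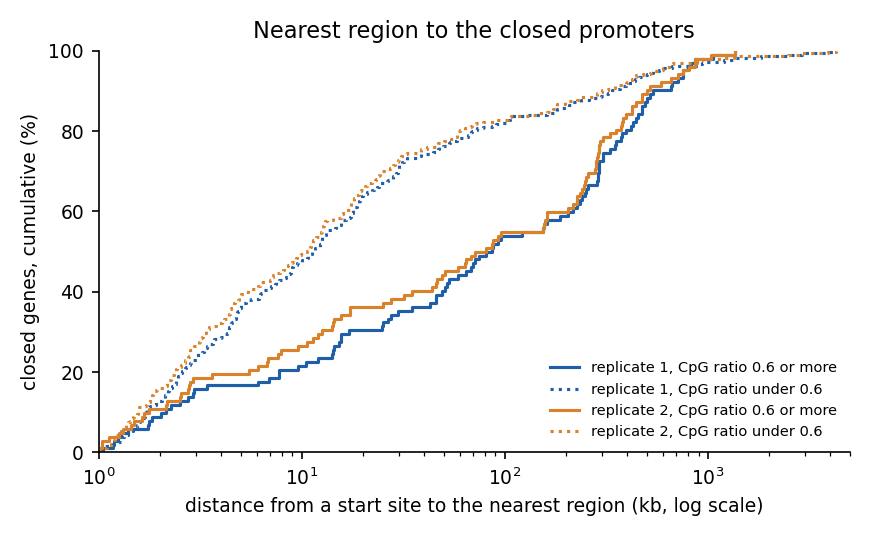
Curves give the cumulative percentage of closed genes whose nearest region lies within the distance on the horizontal axis (kb, log scale), for CpG ratios of 0.6 or more (solid, 102 genes) and under 0.6 (dotted, 295 genes), in replicate 1 (blue) and replicate 2 (orange). The solid curves run to the right of the dotted ones over most of the range, with medians of 83.8 kb and 76.0 kb against 11.3 kb and 10.6 kb.

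Short sequence motifs were counted from 250 bases before to 50 bases after the main annotated start of each gene, on both strands except for the TATA box. The ETS motif CCGGAAG occurred in 3.53% of closed, 11.5% of open and 11.3% of all protein-coding genes. The NRF1 motif GCGCATGCG occurred in none of the 397 closed genes, in 2.17% of open and in 2.22% of all. The SP/KLF motif GGGCGGG was found in 38.3% of closed, 60.3% of open and 33.9% of all, and YY1, AAGATGGCG, in 0.504%, 2.12% and 1.88%. The shares for NFY (CCAAT) were 29.7%, 33.6% and 38.3%, for the cAMP response element (TGACGTCA) 1.76%, 3.10% and 2.51%, and for the E-box CACGTG 8.06%, 9.56% and 7.83%. A TATA box, TATAAA from 40 to 15 bases before the start on the strand of the gene, was present in 2.77% of closed, 1.29% of open and 2.47% of all genes.

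The windows themselves were unlike in base composition, with a median GC content of 61.7% in closed and 66.3% in open genes and medians of 13 and 26 CpGs. In the 102 closed genes with a CpG ratio of 0.6 or more, the medians were 67.5% and 28 CpGs. There the ETS motif was found in 1 gene (0.980%), SP/KLF in 49.0%, NFY in 34.3% and NRF1 in none. Open genes at that ratio were not counted separately, so motif shares were not compared at like CpG content. None of the search strings contains another. In the printed sequences, Hoxd12 held the NFY motif, Fgf21 the SP/KLF motif, an E-box and a TATA box, Hs3st4 the SP/KLF motif and Selenoo the ETS and NFY motifs. These are matches of letters, not measured binding sites.

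The 93 genes with a promoter region in 1 replicate alone lay between both states, 22 of them in replicate 1 and 71 in replicate 2, the longer list. Irx5, a homeobox gene of the heart and retina, had the strongest such region, with a signal of 12.9 in replicate 2, above 89.0% of that list. Replicate 1 held an overlapping region 1.07 kb from the start with a signal of 13.2, so that its edge fell outside the window. The same was true of Psors1c2, a gene of the psoriasis susceptibility locus, with signals of 10.8 in replicate 2 and 10.9 in replicate 1, at 1.08 kb. In all, 3 of the 93 genes had a region of the other replicate overlapping theirs in this way, the last being Tmem59l, named after its values were seen. The others had no overlapping region in the other list. Apart from Irx5 and Psors1c2, no signal exceeded 5.50 in replicate 2, a rank at 44.7% of its list. In replicate 1 none exceeded 4.40, a rank at 26.5%. The signals reached down to 1.63 in Ankrd13b, an ankyrin repeat protein gene, at the lowest 0.121% of the list.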

How the data were processed

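Regions came from 2 ATAC-seq libraries of 1 group, regulatory T cells of the mouse, each with its own list on mm10 made from that library alone, per the deposited text files. The authors' deposited lists give for each region a signal of unstated scale, −log10 p and −log10 q values, whose lowest −log10 q was 1.00 in both, and a score that follows −log10 q up to 1000 and was not used. The deposited positions count from 0 and were converted to count from 1. How reads were aligned, filtered, shifted for the transposase and turned into regions, and with which tools, is unknown, as the sources used here do not say; a linked protocol was not read. Entry names hold the words masked, dedup, ASTARR and insert, whose meaning is likewise not given. A missed or masked place would appear here as a closed promoter.

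Start sites of protein-coding genes were taken from GENCODE M21 on GRCm38. GC content and CpG ratio were averaged over the windows of 1 kb to either side of each start, and a region counted from 1 bp of overlap. Words of 50 bases were counted over the genome on both strands. Genes were put by symbol into 36 classes and 11 marker lists. The printed promoters and further start sites came from RefSeq (GRCm38.p6). Python 3.11.15, numpy 2.4.6, pandas 2.3.3 and numba 0.67.0 were used. The promoter call and the count of repeated words were tested on simulated data.

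No test was made: there is 1 group, and genes are not replicates. The members and the lists were chosen with earlier results of these data known. Genes were named by rule: the 2 closed genes of highest GC content in each class, closed markers and housekeeping genes, the 10 closed genes of highest GC content, those next to the threshold, those with the most or farthest regions, the strongest and weakest single-replicate genes, and the longest runs. Others are said to be named after their values were seen, and 1 gene that the rule names is not reported here. The alternatives varied the window, the start sites, the list threshold, the overlap, the share of genes, the ranking, repeated sequence and the replicates.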

Additional observations from a re-analysis of the deposited data

How the results depend on the processing

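The counts of closed genes stayed within 1.5 times of 397 except with the 50000 strongest regions, the top 10% or 33.3% by GC content and the top 20% by CpG ratio. Developmental factors, ligands and channels had a larger closed share than the GC-rich class, and housekeeping machinery a smaller one, in all 18 settings including the reported one. Ligands and housekeeping genes had the same share in both replicates, so for them every other value counts as moved. The count of closed genes is given for every setting, and shares and medians where they moved by more than the SD between replicates. Promoters of 500 bp to either side of a start gave 449 closed genes, 10.3% of the class, 18.8% of developmental factors, 25.9% of ligands, 47.2% of closed genes with a replicated region in the locus and a median CpG ratio of 0.453. Promoters of 2 kb gave 336 closed genes, 7.71% of the class, 15.5% of ligands, 36.6% of closed genes with a replicated region in the locus and a median CpG ratio of 0.481. Start sites of protein-coding transcripts alone gave 339 closed genes, 7.82% of the class, 18.5% of ligands, 1.02% of housekeeping genes and a median CpG ratio of 0.543. The use of 1 main start site per gene gave 334 closed genes, 7.61% of the class, 18.5% of ligands, 1.04% of housekeeping genes and a median CpG ratio of 0.588. Regions with a −log10 q of 5 or more gave 516 closed genes, 11.8% of the class, 23.8% of developmental factors, 25.9% of ligands, 27.6% of channels and a median CpG ratio of 0.474. The 50000 strongest regions by signal gave 758 closed genes, 17.4% of the class, 39.3% of developmental factors, 39.7% of ligands, 37.9% of channels, 2.20% of housekeeping genes and a median CpG ratio of 0.496. Those by −log10 q gave 710 closed genes, 16.3% of the class, 40.6% of developmental factors, 36.2% of ligands, 38.8% of channels, 2.20% of housekeeping genes and a median CpG ratio of 0.495. A summit inside the promoter, in place of an overlap of 1 bp, gave 474 closed genes, 10.9% of the class, 20.5% of developmental factors, 25.9% of ligands, 47.7% of closed genes with a replicated region in the locus and a median CpG ratio of 0.471. The top 10% by GC content gave 158 closed genes, 7.26% of the class, 12.8% of ligands, 0% of housekeeping genes, 39.2% of closed genes with a replicated region in the locus and a median CpG ratio of 0.604. The top 33.3% gave 843 closed genes, 11.6% of the class, 22.4% of ligands, 26.6% of channels, 1.63% of housekeeping genes, 47.3% of closed genes with a replicated region in the locus and a median CpG ratio of 0.346. GC content of 200 bp to either side gave 280 closed genes, 6.44% of the class, 10.8% of developmental factors, 14.6% of ligands, 0% of housekeeping genes, 38.9% of closed genes with a replicated region in the locus and a median CpG ratio of 0.547. The top 20% by CpG ratio gave 210 closed genes, 4.83% of the class, 11.6% of developmental factors, 20% of ligands, 26.0% of channels, 0.389% of housekeeping genes, 24.3% of closed genes with a replicated region in the locus and a median CpG ratio of 0.660. Without genes of 5% or more repeated words, the values were 330 closed genes, 8.10% of the class, 19.3% of ligands, 1.39% of housekeeping genes, 50.3% of closed genes with a replicated region in the locus and a median CpG ratio of 0.460. Without predicted genes and Riken clones, an alternative chosen after seeing the data, the values were 337 closed genes, 8.14% of the class and 49.0% of closed genes with a replicated region in the locus. Each replicate by itself, leaving out the other, gave 419 to 468 closed genes, 9.61 to 10.7% of the class. The shares were 16.3 to 20.1% of developmental factors, 22.4% of ligands, 22.4 to 25.9% of channels and 1.10% of housekeeping genes. The median CpG ratio was 0.470 to 0.472. Of these closed genes 48.5 to 52.3% had any region of that replicate in the locus. No region can be replicated within 1 list, so this is not the measure used in the other settings. RefSeq start sites, added after seeing the data, were available for 291 of the 397 closed genes and moved no share or median by more than that: 396 genes stayed closed, and Prmt8, named after its values were seen, had a region at a RefSeq start in both replicates. No paired analysis was possible because the replicates form 1 group. The lists hold no counts, so a closed promoter is one without a listed region at an unknown depth, and weak accessibility cannot be told from none. Whether the libraries were plain ATAC-seq or inserts made for another assay was not established. Gene groups were assigned by symbol, and 235 of the 397 closed genes belong to none. The spread between 2 replicates of 1 donor label may be technical.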

Other observations

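The 235 closed genes outside the fixed groups were sorted by the stem of their symbols, a choice made after their values were seen and given without a test, and the 10 stems with 3 or more closed genes are given here. They range from 7.58% to 100% closed, beside 9.11% of the whole GC-rich class, and asking for 3 closed genes favours stems with high shares. The large stems Tmem, with 5 of 66 closed (7.58%), and Fam, with 4 of 52 (7.69%), lay below the class. Of 10 GC-rich genes whose symbols begin with Hs and a digit, 4 were closed: Hs3st2, Hs3st4, Hs3st5 and Hs6st2, all of them heparan sulfate sulfotransferases, which modify the sugar chains that bind growth factors. Their CpG ratios were 0.582 to 0.829, their nearest regions lay 249 kb to 517 kb away in both replicates, and none had a replicated region in its locus. Adenylyl cyclases, which make cyclic AMP, gave 3 closed of 7, Adcy1, Adcy2 and Adcy8, and proprotein convertases, which cut hormone precursors, 3 of 5, Pcsk2, Pcsk5 and Pcsk6.

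Aquaporins, the water channels, were closed in 3 of 4 cases and had regions close by. Aqp2, Aqp6 and Aqp12 had CpG ratios of 0.185 to 0.270, regions at 4.48 kb to 8.08 kb in replicate 1 and 2.64 kb to 4.62 kb in replicate 2, and a replicated region in every locus. The 4 genes of the Krtap stem, all closed, had ratios of 0.0195 to 0.149 and 5% or more repeated words in all 4. The Krt stem gave 3 closed of 4, the St stem 3 of 8 and the Atp stem 4 of 12.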
